A study of Homo sapiens with 204 samples.

Results

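The 30 genes described here encode enzymes and regulators of cholesterol and fatty acid synthesis. They were taken by name, through their Ensembl identifiers, from tables that hold 41379 gene identifiers in RNA-seq and 19217 in Ribo-seq. No cut on a measured value was used, but earlier results of these data were known when they were chosen. By role they are 8 genes from acetyl-CoA to squalene, 10 from squalene to cholesterol, 5 of sterol sensing and transport, and 7 of fatty acid synthesis and desaturation. All 30 passed the filter on low counts in both assays, in which 15526 genes of RNA-seq and 12793 of Ribo-seq were tested.

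The libraries came from A549, a human lung adenocarcinoma line, after siRNA against 1 of 75 ribosomal proteins, 44 of the large subunit and 31 of the small. Knockdown and control cells alike were grown with fetal bovine serum and transfected for 24 h at 40 nM siRNA, and the controls received non-targeting siRNA. Each lysate, made with cycloheximide to hold ribosomes in place, was split for RNA-seq, which reads transcript abundance, and Ribo-seq, which reads the fragments of mRNA that ribosomes protect. Per assay, 91 libraries came from knockdowns and 11 from controls. Of the targets, 16 (4 large-subunit, 12 small-subunit) had 2 libraries each, with numbered titles that they shared with 6 controls. The other 59 (40 and 19) had 1 library each, with unnumbered titles, as had 5 controls. Tests over all libraries pooled the title sets, with the title set as a covariate, and fits within each title set were run as alternatives. The labels name the target of each siRNA and not the siRNA itself, so the effect of a target and that of its siRNA cannot be told apart. No source used here says that libraries of one group came from separate cultures, so the spread between libraries of a target or of the controls may be technical. In comparisons over many targets, the spread behind the p-values also includes differences between targets and their siRNAs. There the 2 libraries of a target count separately unless summed.

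Cholesterol and fatty acids are both built from cytosolic acetyl-CoA. When membranes of the endoplasmic reticulum run low in cholesterol, SCAP carries the transcription factors SREBP-1 and SREBP-2, products of SREBF1 and SREBF2, to the Golgi. There they are cut, and their released fragments enter the nucleus and raise transcription of most genes listed here. INSIG1, which is itself induced by SREBP, holds SCAP back when sterols are plentiful. SREBP-2 is best known for the sterol enzymes and SREBP-1c for the fatty acid enzymes, and both act at promoters together with the factors NF-Y and Sp1.

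Promoters of 4 of these genes are printed here to show which letters of those factors lie next to the start sites. MVK, EBP and FADS1 were among the genes called in the most comparisons below, and SREBF2 was added after the matches were seen, because it alone held the sterol element. The sequences are RefSeq's, build GRCh38.p14, and each is the 250 bases before the start site, read 5′ to 3′ on the strand of its gene. Capitals mark CCAAT (NF-Y), GGGCGG (Sp1) and TCACNCCAC (the sterol regulatory element core) on either strand, so that ATTGG and CCGCCC are the same boxes read in reverse. The windows are chr12:109573544-109573793 (plus strand) for MVK, chrX:48521558-48521807 (plus) for EBP, chr11:61817004-61817253 (minus) for FADS1 and chr22:41832855-41833104 (plus) for SREBF2. The MVK window lies inside the annotated span of the gene, which begins at 109573272.
MVK: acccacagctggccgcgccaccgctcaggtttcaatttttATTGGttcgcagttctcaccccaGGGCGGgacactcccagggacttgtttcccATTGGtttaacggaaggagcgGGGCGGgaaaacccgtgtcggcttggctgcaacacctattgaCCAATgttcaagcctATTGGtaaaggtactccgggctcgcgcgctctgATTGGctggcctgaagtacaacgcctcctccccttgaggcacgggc
EBP: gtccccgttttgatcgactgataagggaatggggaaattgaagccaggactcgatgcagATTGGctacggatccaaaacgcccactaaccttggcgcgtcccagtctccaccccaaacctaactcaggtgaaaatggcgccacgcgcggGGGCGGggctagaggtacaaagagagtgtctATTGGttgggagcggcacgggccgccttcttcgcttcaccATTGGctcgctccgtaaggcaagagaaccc
FADS1: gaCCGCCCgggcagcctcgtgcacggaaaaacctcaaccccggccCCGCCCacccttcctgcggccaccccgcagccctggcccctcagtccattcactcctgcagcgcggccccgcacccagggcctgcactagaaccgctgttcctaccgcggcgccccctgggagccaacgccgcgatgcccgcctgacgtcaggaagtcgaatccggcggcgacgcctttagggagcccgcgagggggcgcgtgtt
SREBF2: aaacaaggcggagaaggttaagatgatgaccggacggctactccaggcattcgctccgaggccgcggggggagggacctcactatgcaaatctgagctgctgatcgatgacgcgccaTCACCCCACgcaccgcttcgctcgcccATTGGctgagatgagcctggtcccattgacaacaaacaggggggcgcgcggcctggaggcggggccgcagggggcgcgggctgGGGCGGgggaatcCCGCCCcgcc

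MVK held 5 NF-Y boxes and 2 Sp1 boxes, EBP 3 and 1, and FADS1 2 Sp1 boxes. SREBF2 held the sterol element once, with 1 NF-Y box and 2 Sp1 boxes. In windows of 300 bases, from 250 before to 50 after the start, 20 of the 26 members with an entry held CCAAT on either strand, against 39.7% of 27305 genes. GGGCGG was present in 25 of the 26, against 48.3% of genes. TCACNCCAC was in 1 of the 26 (SREBF2), against 1.39%, and TCACGTGA, an E-box that SREBPs can also bind, in 1 (INSIG1), against 1.18%. A match is a stretch of letters and not a measured binding site, and an absent one says only that these letters are not in the window.

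Control libraries were compared before anything was set against them. Among the 11 controls, the RNA-seq library 20_2 gave the highest value for 17 of the 30 genes and the lowest for 8. HMGCS1 in it was at 77.7 CPM (counts scaled so that every library has the same effective total) against at least 148 in the other 5 numbered controls, and FASN at 1155 against at most 843. Its Ribo-seq partner was the highest for 0 and the lowest for 0 of the 30. Controls also differed by pair: MSMO1 in Ribo-seq lay between 101.8 and 119 CPM in the controls numbered 11 and 20 and between 218 and 255 in those numbered 21. The columns of the tables come in 3 alphabetical runs, which no source used here calls a batch. Controls 11 and 20 and 15 of the 16 targets with 2 libraries stand in the first run, controls 21 in the third and RPS16 in the other two. Calls that change without control 20_2 are given below for the genes and targets described in full. Calls of RNA-seq and Ribo-seq that change with a term for the column run are given for the comparisons over all libraries. For the 16 targets, values with that term are given for some genes and targets. Totals ran from 18796932 to 63569574 reads in RNA-seq and from 7771312 to 57215307 in Ribo-seq. The targeted mRNA was below all 11 controls in 90 of the 90 knockdown libraries checked, with a median of 4.17% left. Of 10 markers of A549 and airway epithelium, 10 exceeded 1 CPM on average in control RNA-seq, and of 5 blood, 4 endothelial, 5 fibroblast and 4 hepatocyte markers 1, 0, 1 and 0 did. In control Ribo-seq 9 of the 10 did. In Ribo-seq the summed blood markers had a median of 3.84 CPM in controls and 4.44 in knockdowns, but a highest of 7.56 and 231. The summed hepatocyte markers had medians of 0.212 and 0.186 CPM and a highest of 0.502 and 30.7.

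When all knockdowns were compared with control, most enzymes of sterol synthesis fell, PMVK rose, and the fatty acid genes were split between lower and not past the threshold. In RNA-seq 17 of the 30 genes fell, against 17.2% of all genes tested, and 1 rose, against 13.4%, and the other 12 did not pass (edgeR's quasi-likelihood test, adjusted p below 0.05 over all genes). Their median log2 fold change was -0.26, beside -0.03 for all genes. In Ribo-seq 16 fell, against 13.5% of all genes, and 2 rose, against 13.2%, with a median of -0.28 beside -0.004. Both assays called 13 genes lower, out of 17 in RNA-seq and 16 in Ribo-seq. CPM are shares of a library, so fewer reads of one gene and more of others are not separated, and in bulk lysates neither are fewer expressing cells and less RNA per cell.

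From acetyl-CoA to squalene, 5 of 8 genes fell and 1 rose in each assay. HMGCS1, which joins acetoacetyl-CoA and acetyl-CoA on the way to mevalonate, had a lowest, median and highest RNA-seq level of 77.7, 152 and 217 CPM in the 11 controls and 56.2, 108 and 231 in the 91 knockdown libraries. In Ribo-seq it had 382, 502 and 652 CPM in controls and 134, 304 and 659 in knockdowns. The groups overlapped, but 54 knockdown libraries in RNA-seq and 76 in Ribo-seq lay under every control of their title set. Its log2 fold change was -0.54 (SE 0.13, adjusted p = 0.00057) in RNA-seq and -0.67 (SE 0.13, adjusted p = 2.2e-05) in Ribo-seq. MVK (mevalonate kinase) fell by 0.48 and 0.46 on the log2 scale in the respective assays, IDI1 (isopentenyl diphosphate isomerase) by 0.46 and 0.52, and FDFT1 (squalene synthase) by 0.27 and 0.29. MVD, the decarboxylase that makes isopentenyl diphosphate, fell in RNA-seq alone among the tests passed (-0.30, with -0.17 and adjusted p = 0.28 in Ribo-seq). ACAT2, the cytosolic acetoacetyl-CoA thiolase, passed in Ribo-seq at -0.27 and had -0.15 (adjusted p = 0.20) in RNA-seq. FDPS (farnesyl diphosphate synthase) passed in neither, at -0.14 in both assays.

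PMVK, the kinase between MVK and MVD, went the other way. Its RNA-seq levels were 18.01, 21.6 and 43.3 CPM in controls and 9.99, 28.8 and 53.8 in knockdowns, and its Ribo-seq levels 43.3, 50.8 and 64.8 against 16.7, 65.8 and 101. In 58 of the 91 Ribo-seq libraries it was above every control of its set, as it was in 28 of RNA-seq. It rose by 0.28 (SE 0.10, adjusted p = 0.024) in RNA-seq and 0.32 (SE 0.10, adjusted p = 0.011) in Ribo-seq.

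From squalene to cholesterol, 6 of 10 genes fell in RNA-seq, and 7 fell and 1 rose in Ribo-seq. EBP, a sterol isomerase, stood at 63.0, 78.5 and 160 CPM in control RNA-seq and 24.0, 54.3 and 118 in knockdowns. In Ribo-seq it stood at 128, 169 and 206 CPM against 29.8, 99.9 and 182. It was under every control of its set in 73 RNA-seq and 81 Ribo-seq libraries of 91. Its log2 fold change was -0.59 (SE 0.11, adjusted p = 1.9e-05) in RNA-seq and -0.67 (SE 0.11, adjusted p = 2.4e-06) in Ribo-seq.

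SQLE, the squalene epoxidase, had more Ribo-seq libraries under every control of their title set than any other member. It had 80.8, 131 and 150 CPM in control RNA-seq and 62.5, 96.6 and 125 in knockdowns. In Ribo-seq the controls had 175, 207 and 261 CPM and the knockdowns 91.1, 147 and 236, with 88 of 91 libraries under every control of their set. The fold changes were -0.36 (SE 0.06, adjusted p = 7.9e-06) and -0.55 (SE 0.07, adjusted p = 5.6e-09) on the log2 scale.

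MSMO1, a methylsterol oxidase, had 42.9, 69.0 and 111 CPM in control RNA-seq and 14.1, 51.7 and 108 in knockdowns, and in Ribo-seq 101.8, 211 and 320 against 22.5, 125 and 304. It fell by 0.54 (SE 0.12, adjusted p = 0.00025) and by 0.70 (SE 0.13, adjusted p = 2.6e-05) on the log2 scale. Among the other late enzymes, DHCR7, the reductase that makes cholesterol, fell by 0.47 and 0.50, and NSDHL, a sterol decarboxylase, by 0.27 and 0.24 in RNA-seq and Ribo-seq. LSS (lanosterol synthase) passed in RNA-seq alone (-0.35), and CYP51A1 (lanosterol demethylase) and SC5D (a sterol desaturase) in Ribo-seq alone (-0.38 and -0.36), and the SC5D call was lost with a term for the column run (-0.17, adjusted p = 0.18). HSD17B7, a ketosterol reductase, passed in neither.

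TM7SF2, a sterol reductase whose reaction LBR also carries out, was the late gene with higher levels. Its control levels were 3.74, 5.11 and 6.58 CPM in Ribo-seq and its knockdown levels 0.540, 6.98 and 22.7, so that knockdown libraries lay on both sides of the controls. Of the 91, 52 were above and 13 below every control of their set. It rose by 0.65 (SE 0.25, adjusted p = 0.048) in Ribo-seq, which was lost without control 20_2, and had 0.47 (SE 0.20, adjusted p = 0.068) in RNA-seq.

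Of the 5 genes of sensing and transport, 2 fell in RNA-seq and 1 in Ribo-seq. SREBF2 had 118, 131 and 241 CPM in control RNA-seq and 54.8, 119 and 227 in knockdowns, and 66.6, 89.4 and 106 against 25.96, 68.5 and 128 in Ribo-seq. It fell by 0.21 (SE 0.08, adjusted p = 0.031) in RNA-seq and had -0.27 (SE 0.11, adjusted p = 0.052) in Ribo-seq. SREBF1 had 109, 117 and 261 CPM in control RNA-seq and 62.7, 112 and 272 in knockdowns. Its log2 fold change was -0.14 (95% interval -0.35 to 0.06) in RNA-seq and -0.04 (-0.27 to 0.19) in Ribo-seq, neither past the threshold.

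INSIG1 had 68.6, 86.1 and 128 CPM in control RNA-seq and 30.7, 82.9 and 157 in knockdowns. In Ribo-seq the levels were 63.0, 73.3 and 104 CPM against 20.96, 60.5 and 115. Knockdown libraries spread to both sides, with 50 below and 9 above every control of their set in Ribo-seq. The mean change was -0.15 (95% interval -0.43 to 0.13) in RNA-seq and -0.29 (-0.60 to 0.02) in Ribo-seq, not past the threshold. SCAP was at -0.02 and 0.08 in RNA-seq and Ribo-seq, also not past it. STARD4, a carrier that moves cholesterol between membranes, fell by 0.50 (adjusted p = 0.014) and 0.46 (adjusted p = 0.023) on the log2 scale, and both calls were lost with a term for the column run (adjusted p = 0.096 and 0.080).

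Of the 7 fatty acid genes, 4 fell in RNA-seq and 3 in Ribo-seq. ELOVL6, which lengthens palmitate to stearate, had 18.9, 64.1 and 77.1 CPM in control RNA-seq and 10.7, 42.5 and 65.7 in knockdowns. In Ribo-seq it had 34.2, 41.9 and 48.5 CPM against 7.85, 27.1 and 47.0, and 74 of 91 libraries were under every control of their set. It fell by 0.52 (SE 0.11, adjusted p = 0.00014) in RNA-seq and by 0.62 (SE 0.11, adjusted p = 1.4e-05) in Ribo-seq. FASN, the fatty acid synthase, had 308, 438 and 1155 CPM in control RNA-seq and 170, 374 and 821 in knockdowns. It fell by 0.31 (SE 0.10, adjusted p = 0.011) there and by 0.33 (SE 0.12, adjusted p = 0.026) in Ribo-seq, and both calls were lost without control 20_2.

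The desaturases split. FADS1 fell by 0.24 (adjusted p = 0.027) in RNA-seq and 0.42 (adjusted p = 0.00085) in Ribo-seq, where 78 of 91 libraries were under every control of their set. FADS2 fell by 0.30 (adjusted p = 0.032) in RNA-seq and had -0.20 (adjusted p = 0.097) in Ribo-seq. These neighbours overlap on opposite strands of chromosome 11, and no source used here says whether reads were counted by strand. SCD, which makes oleate, had -0.20 (95% interval -0.42 to 0.02) and -0.21 (-0.45 to 0.03), and ACLY and ACACA, the enzymes that make acetyl-CoA and malonyl-CoA, had -0.04 and 0.08 in RNA-seq. None of these values passed.

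**Figure D1:**
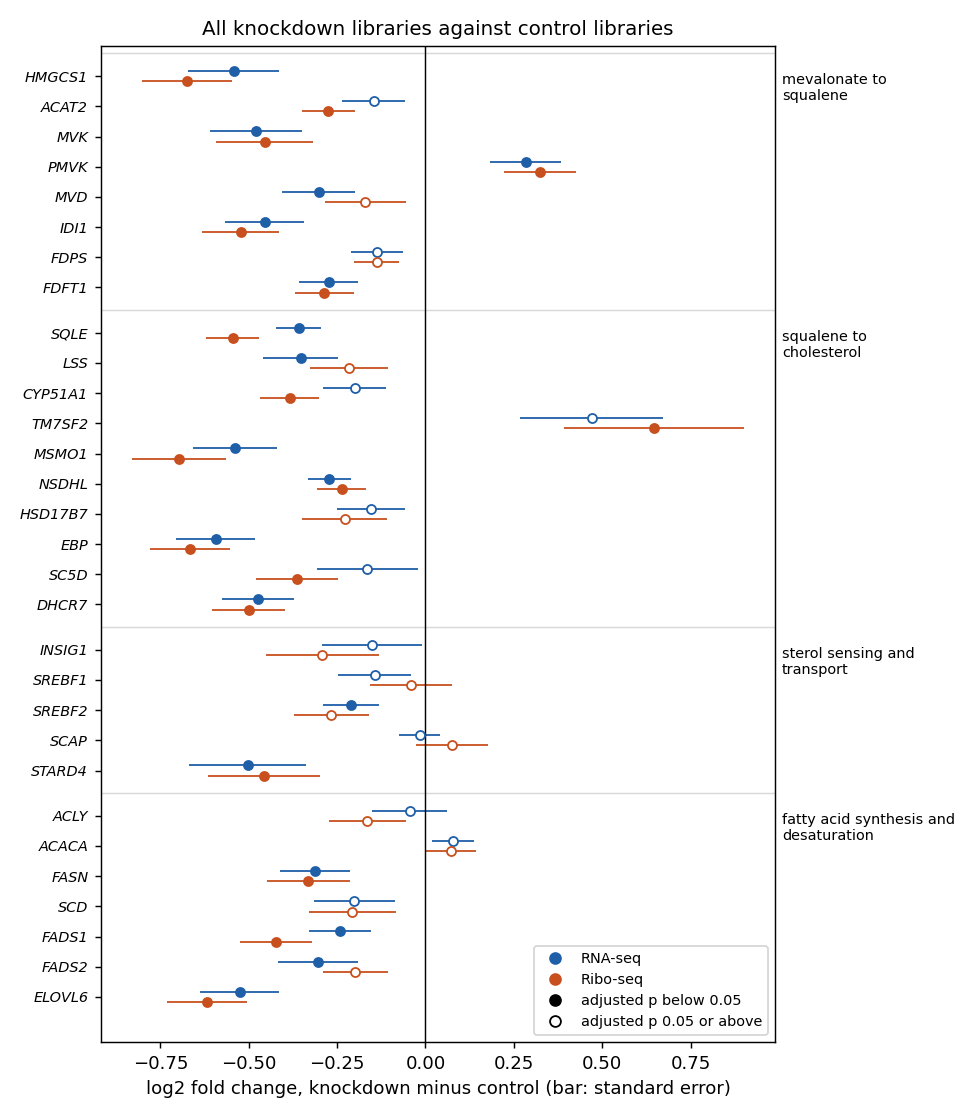
Log2 fold change of each of the 30 genes, all knockdowns against control, in RNA-seq and Ribo-seq, grouped by role (points, estimates; bars, standard error; filled points passed the adjusted p of 0.05). Most points lie below 0, EBP reaches -0.59 in RNA-seq and MSMO1 -0.70 in Ribo-seq, while PMVK and TM7SF2 lie above 0.

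Within numbered titles 5 genes were called lower in RNA-seq (5.71% of all genes) and 12 in Ribo-seq (8.99%), and within unnumbered titles 9 (5.8%) and 4 (1.92%). HMGCS1, EBP and ELOVL6 passed in both title sets in RNA-seq, and HMGCS1, EBP, SQLE and CYP51A1 in Ribo-seq. Without control 20_2 the RNA-seq count went from 17 to 13 lower (15.7% of all genes) and from 1 to 2 higher (13.9%): MVD, FDFT1, SREBF2, FASN and FADS2 lost the call, and CYP51A1 (lower) and TM7SF2 (higher) gained it. With a term for the column run, beside the calls lost for STARD4 and SC5D, FDPS was also called lower in RNA-seq. SREBF2 and LSS were then also called lower in Ribo-seq.

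**Figure D2:**
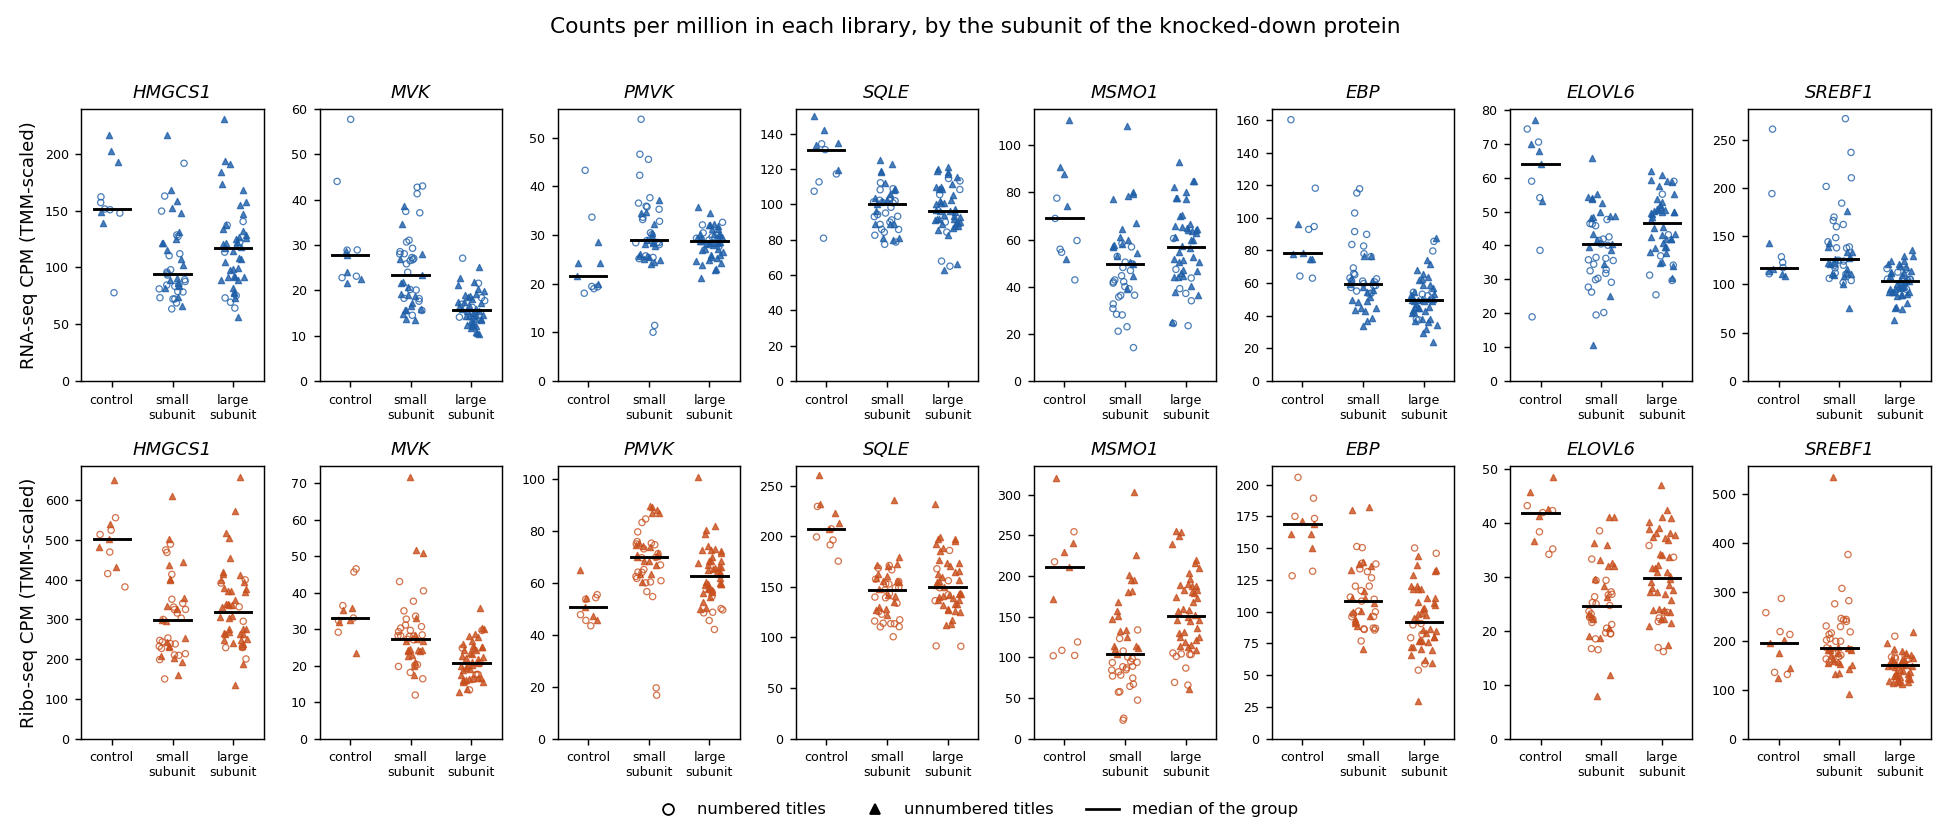
CPM of named genes in every library (linear axis from 0; each point is 1 library, open circles for numbered and triangles for unnumbered titles; lines, group medians), with controls, small-subunit and large-subunit knockdowns side by side. SQLE in Ribo-seq runs from 175 to 261 CPM in controls and from 91.1 to 236 in knockdowns.

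Translation efficiency, the change in Ribo-seq relative to RNA-seq, was tested next, to separate changes of ribosome loading from changes of transcript level. No member passed in either direction with edgeR (0 of 30 higher against 0.457% of all 12480 genes, and 0 lower against 0.024%), 0 had an unadjusted p below 0.05, and DESeq2 called 0 (0.505% of genes higher and 0.024% lower). The lowest estimates were -0.20 (SC5D), -0.18 (SQLE), -0.18 (FADS1) and -0.18 (CYP51A1), and the 95% interval for SQLE ran from -0.38 to 0.02. When each lysate's RNA-seq and Ribo-seq were taken as a pair (limma on the per-lysate log2 ratio), 2 genes were lower, against 0.881% of genes. These were SQLE at -0.20 (adjusted p = 0.025) and FADS1 at -0.19 (adjusted p = 0.0087).

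Genes of neighbouring pathways were called in both directions, and the counts are read beside the 13.4% of all genes that rose and 17.2% that fell in RNA-seq. Of 12 genes of sterol uptake, storage and efflux, 2 rose and 1 fell in RNA-seq: ABCG1 (a sterol exporter) rose by 0.49 and OSBP (a sterol exchanger) by 0.26, and SCARB1 (a lipoprotein receptor) fell by 0.23. Of 10 genes that process SREBP or degrade sterol-regulated proteins, 2 rose and 3 fell. ERLIN2 rose by 0.68 and MBTPS1, the Golgi protease that cuts SREBP first, by 0.29, while PAQR3 fell by 0.62 and SPRING1 by 0.36. Of 16 genes listed as other fatty acid and triglyceride synthesis, 1 rose (ME1, malic enzyme, by 0.66) and 4 fell, among them DGAT2 (by 0.51). Another of the 4 was TMEM97 (by 0.49), which the list held although it is known as a regulator of sterol transport that binds NPC1. Of 10 genes of the isoprenoid and dolichol branches, 1 rose (PDSS2, by 0.71) and 3 fell, led by FNTB (by 0.35). Of 11 genes of fatty acid oxidation, 5 rose and 0 fell in RNA-seq, led by SLC25A20 (by 0.66) and HADHB (by 0.29). In Ribo-seq 4 of 12 rose and 0 fell, where 13.2% of all genes rose and 13.5% fell.

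The second comparison set knockdowns of large-subunit proteins against those of small-subunit proteins, fitted together with the controls. In RNA-seq 14 of the 30 genes were lower with large-subunit targets, against 16.4% of all genes, and 0 were higher, against 15.2%. For the higher direction edgeR had 0 at an unadjusted p below 0.05 and DESeq2 called 0 (16.4% of all genes). The median difference was -0.13 beside -0.006 for all genes. By role, 5 of 8 genes to squalene, 2 of 10 after it, 1 of 5 of sensing and transport, and 6 of 7 fatty acid genes were lower. In Ribo-seq 10 were lower, against 11.2%, and 1 higher, against 10.9%. The 10 were 5 of 8, 1 of 10, 3 of 5 and 1 of 7 in the same order of roles. MVK, ACAT2, MVD, FDPS, SREBF1 and FASN passed in both assays, 6 of 14 and 6 of 10.

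MVK showed the largest difference. Its lowest, median and highest RNA-seq levels were 13.5, 23.4 and 43.0 CPM in 43 small-subunit libraries and 10.4, 15.6 and 27.1 in 48 large-subunit libraries, and 44 of the 48 were under every control of their set, against 20 of the 43. The difference was -0.45 (SE 0.09, adjusted p = 2.7e-05) in RNA-seq and -0.46 (SE 0.09, adjusted p = 5.6e-05) in Ribo-seq. ACAT2 had 30.8, 40.6 and 65.5 CPM in small-subunit and 23.2, 34.5 and 45.8 in large-subunit RNA-seq libraries, a difference of -0.33 (SE 0.06, adjusted p = 1.4e-06), and of -0.18 in Ribo-seq. Of the remaining genes before squalene, IDI1 (-0.27), MVD (-0.22) and FDPS (-0.19) were lower in RNA-seq. PMVK was lower in Ribo-seq at -0.23 (adjusted p = 0.0068) and had -0.04 in RNA-seq.

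FASN had 228, 464 and 821 CPM in small-subunit and 170, 312 and 492.6 in large-subunit RNA-seq libraries. It differed by -0.34 (SE 0.06, adjusted p = 1.1e-05) there and by -0.25 (SE 0.08, adjusted p = 0.017) in Ribo-seq. SREBF1 had 75.9, 127 and 272 CPM against 62.7, 104 and 135, and no large-subunit library exceeded every control of its set. It differed by -0.32 (SE 0.07, adjusted p = 0.00012) in RNA-seq and by -0.33 (SE 0.08, adjusted p = 0.00063) in Ribo-seq. SCD differed by -0.24 (SE 0.08, adjusted p = 0.014) in RNA-seq and had -0.18 (adjusted p = 0.14) in Ribo-seq. The other fatty acid genes lower in RNA-seq were FADS2 (-0.28), ACLY (-0.21), FADS1 (-0.20) and ACACA (-0.12), and of the late sterol genes DHCR7 (-0.31) and LSS (-0.19) were.

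Several genes that fell against control, and INSIG1, which had not passed there, did not pass between the subunits. For HMGCS1 the difference between large- and small-subunit targets was 0.03 in RNA-seq, with a 95% interval from -0.16 to 0.22. For SQLE it was -0.05 (-0.15 to 0.04) in RNA-seq and 0.01 (-0.10 to 0.12) in Ribo-seq. For MSMO1 it was -0.05 (-0.22 to 0.13), for NSDHL -0.07 (-0.16 to 0.01), for ELOVL6 0.09 (-0.07 to 0.25) and for INSIG1 0.05 (-0.15 to 0.26) in RNA-seq, none past the threshold. SREBF2 was at -0.00 (SE 0.06) in RNA-seq and lower by 0.26 in Ribo-seq (SE 0.07, adjusted p = 0.0064). SC5D was the 1 gene higher with large-subunit targets in Ribo-seq, at 0.25 (SE 0.08, adjusted p = 0.022), and its difference was 0.37 within unnumbered and 0.01 within numbered titles.

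**Figure D3:**
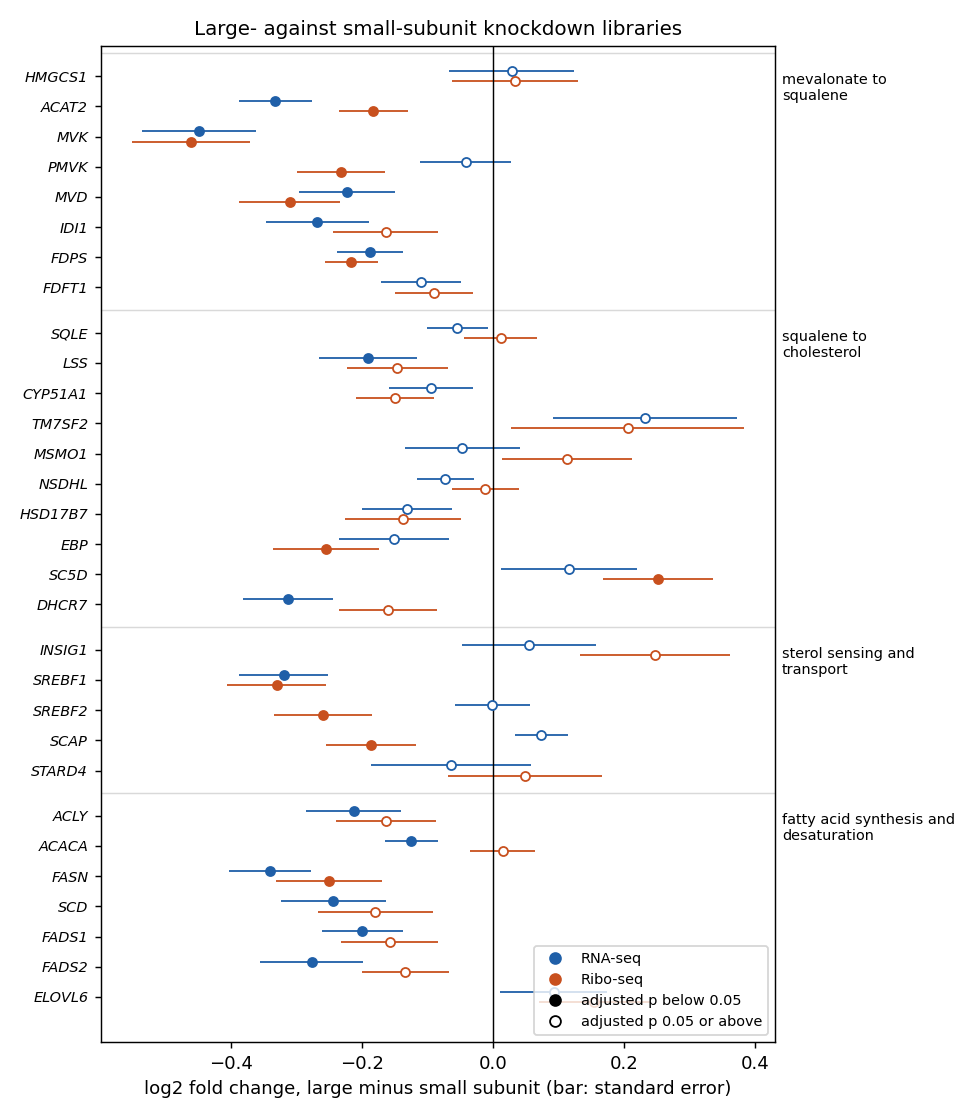
Log2 difference, large-subunit minus small-subunit knockdowns, for each of the 30 genes in RNA-seq and Ribo-seq by role (points, estimates; bars, standard error; filled points passed the adjusted p of 0.05). MVK lies lowest at -0.45 and -0.46, HMGCS1 and SQLE lie close to 0, and SC5D lies above 0 in Ribo-seq.

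With the 2 libraries of a target summed, so that each target counts once, the RNA-seq count of lower genes was 9 in place of 14 (13.6% of all genes). MVD, LSS, SCD, FADS1 and ACACA lost the call, with adjusted p from 0.0505 to 0.097, which left 3 of 7 fatty acid genes (FADS2, ACLY and FASN). Within title sets 5 genes were lower in numbered (7.38% of all genes) and 9 in unnumbered RNA-seq libraries (14.4%), of which ACAT2, DHCR7, MVK and SREBF1 passed in both. In Ribo-seq FDPS, MVK and SREBF1 passed in both. With a term for the column run, HSD17B7, EBP and FDFT1 were also called lower in RNA-seq, and FADS1 and DHCR7 in Ribo-seq.

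In translation efficiency 1 member was lower with large-subunit targets, against 2.52% of all genes, and 0 were higher, against 1.06%. This was SCAP at -0.27 (SE 0.08, adjusted p = 0.032), whose call was lost with the libraries of a target summed and within each title set (-0.23 numbered, -0.29 unnumbered). With lysates paired, 5 genes were higher (7.56% of all genes) and 3 lower (8.45%). The higher ones were INSIG1 (0.23, adjusted p = 9.0e-05), ACAT2 (0.15), DHCR7 (0.15), MSMO1 (0.18) and ACACA (0.13), and the lower ones SCAP (-0.29), SREBF2 (-0.26) and PMVK (-0.20).

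Outside the 30 genes, ABCA1, the exporter that loads cholesterol onto lipoproteins, was higher with large-subunit targets by 0.94 in RNA-seq (SE 0.13) and 0.60 in Ribo-seq (SE 0.14). NPC1, which releases cholesterol from lysosomes, was higher by 0.34 and 0.39. In the list of uptake, storage and efflux 3 of 12 genes were higher and 1 lower in RNA-seq, where 15.2% of all genes were higher and 16.4% lower, and 3 and 0 in Ribo-seq, where 10.9% and 11.2% were. Among the other lists the RNA-seq counts were 3 higher and 1 lower of 10 (isoprenoid and dolichol branches), 1 and 4 of 16 (other fatty acid and triglyceride synthesis), 3 and 1 of 11 (fatty acid oxidation), and 1 and 1 of 10 (SREBP processing and degradation).

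The 16 targets with 2 libraries could each be tested against the 6 numbered controls. Over 480 pairs of member and target, 125 were lower in RNA-seq, against 12.5% of all gene and target pairs, and 21 higher, against 10.8%. In Ribo-seq 195 were lower, against 15.4%, and 21 higher, against 13.9%. Because all 16 share their controls, the targets are given side by side. RPL24, a large-subunit protein, had the most members called, 20 lower and 0 higher in RNA-seq (13.7% and 12.1% of all genes) and 24 lower and 0 higher in Ribo-seq (16.2% and 15.7%). RPS26 followed with 15 lower and 1 higher in RNA-seq (8.71% and 8.1%) and 22 and 1 in Ribo-seq (13.4% and 12%). RPS12 had 17 and 1 (13.9% and 11.7%) and then 19 and 0 (16.8% and 16%), and RPL21 14 and 2 (17.3% and 15.6%) and then 17 and 2 (19.8% and 18.7%). RPS9 had 1 member lower and 1 higher in RNA-seq (12.5% and 10.8%), and RPL29 had 4 lower and 0 higher in Ribo-seq (6.41% and 6.7%), but neither count held: RPS9 had 3 lower and 4 higher without control 20_2 and 5 lower with a term for the column run, and RPL29 had 16 lower with that term. With that term RPL24, RPS26 and RPS12 had 23 members lower each in RNA-seq, and RPL24 had 26 in Ribo-seq.

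The members called in most targets were HMGCS1 (24 of 32 tests over both assays), EBP (21), MSMO1 (20) and SQLE (20). This order depended on the controls, since without control 20_2 SQLE went from 6 to 12 lower calls in RNA-seq and PMVK from 3 to 9 higher, and with a term for the column run EBP went from 9 to 13 lower and SQLE to 4. In RPL24 knockdown the 2 libraries lay close to each other for each. HMGCS1 had 75.2 and 73.2 CPM in RNA-seq and 229 and 200 in Ribo-seq, with log2 fold changes of -0.93 and -1.15. EBP had 54.3 and 54.5 CPM in RNA-seq and 90.6 and 89.5 in Ribo-seq (-0.87 and -0.89). MSMO1 had 23.4 and 24.3 CPM, then 65.7 and 69.1 (-1.33 and -1.16), and its Ribo-seq change was -0.68 with a term for the column run, where the controls of its own run were at 101.8 to 119 CPM. SQLE had 67.8 and 64.9 CPM, then 91.1 and 91.5 (-0.78 and -1.13). All 8 values were past the threshold, and each of the 4 genes was lower in both libraries of both assays than in any of the 6 numbered controls.

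RPS15 was the target with the most members called higher. It had 7 members higher and 3 lower in each assay, where 14.9% of all genes were higher and 18.9% lower in RNA-seq, and 11.2% and 13.3% in Ribo-seq. INSIG1 rose by 0.59 (adjusted p = 9.7e-05) in RNA-seq and 0.41 (adjusted p = 0.0078) in Ribo-seq, SREBF1 by 0.73 (adjusted p = 0.011) and 0.72 (adjusted p = 0.0061), and SCD by 0.58 (adjusted p = 0.0011) and 0.49 (adjusted p = 0.0045). RPS15A, with 2 members higher in RNA-seq, had 12 without control 20_2. In RPS15 knockdown PMVK, FDPS and SREBF2 were also higher in both assays, with ACACA in RNA-seq and TM7SF2 in Ribo-seq. HMGCS1 was lower in both. INSIG1 had the opposite sign in RPS26 knockdown, at -1.19 in RNA-seq and -1.57 in Ribo-seq.

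**Figure D4:**
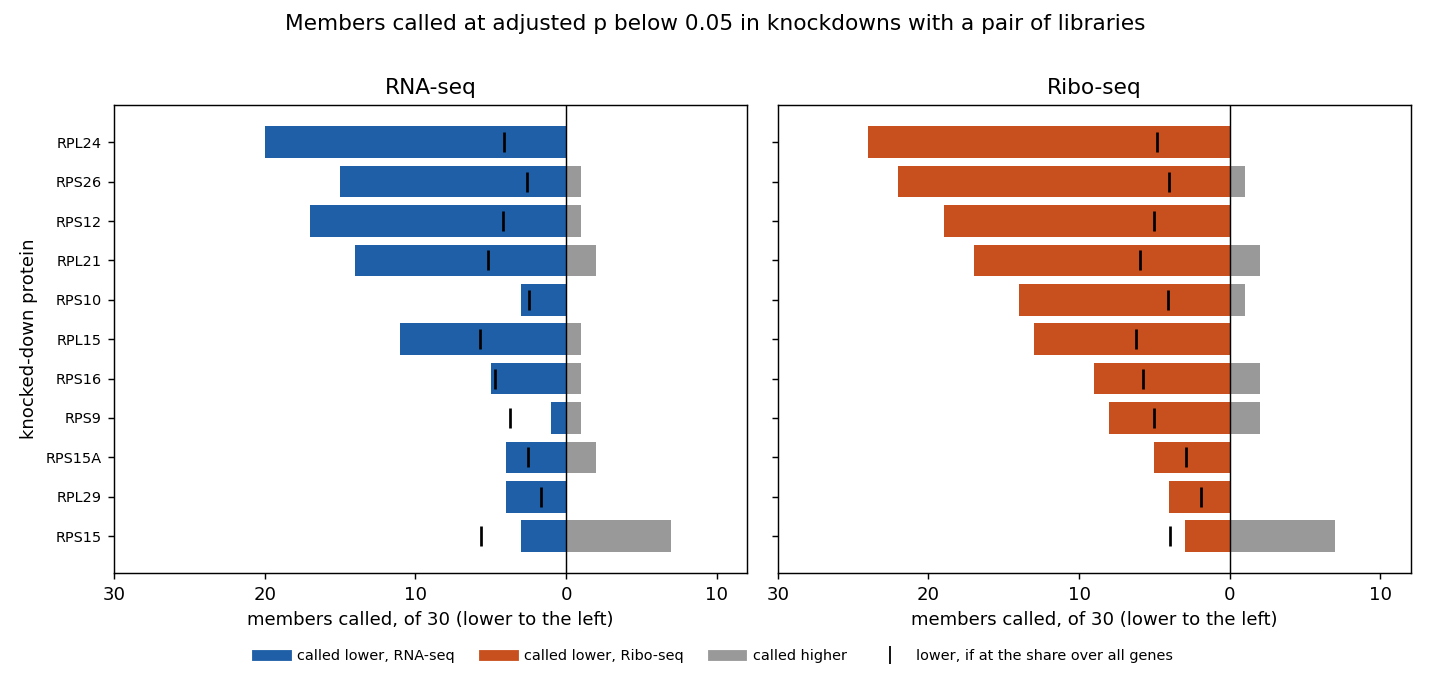
Members called lower (bars to the left) and higher (grey bars to the right), of 30, in the 11 targets with 2 libraries that the text names, for RNA-seq and Ribo-seq (ticks, the number lower if members were called at the share over all genes). RPL24 reaches 20 and 24 lower with 0 higher, and RPS15 has 7 higher and 3 lower in both assays.

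Several pairs of gene and target stood out after the values were seen. PMVK, higher in 71 of 75 targets in RNA-seq, was at 9.99 and 11.4 CPM in the RPS15A libraries against 18.01 to 43.3 in the 6 controls. Its Ribo-seq level there was 19.5 and 16.7 CPM against 43.3 to 55.3, and the log2 fold changes were -1.22 (adjusted p = 0.0031) and -1.48 (adjusted p = 2.0e-10). MSMO1 in RPS10 knockdown was at 14.1 and 21.1 CPM in RNA-seq and 22.5 and 24.98 in Ribo-seq, with -1.76 (adjusted p = 2.5e-07) and -2.67 (adjusted p = 5.6e-08). These changes are against all 6 numbered controls, which for MSMO1 also followed the column run. In controls 11 and 20, of the run of RPS10, MSMO1 was at 42.9 to 59.6 CPM in RNA-seq and 101.8 to 119 in Ribo-seq. In controls 21 it was at 77.6 and 69.0 CPM and at 255 and 218. LSS in RPS16 knockdown was at 30.0 and 22.7 CPM in RNA-seq, with -1.25 (adjusted p = 0.00033), and -1.27 (adjusted p = 6.3e-05) in Ribo-seq. Its control levels followed the column run, at 58.7 to 95.8 CPM in controls 11 and 20 and 39.9 and 42.1 in controls 21 in RNA-seq, and at 83.0 to 88.1 and 41.5 and 42.6 in Ribo-seq. With a term for the run, which leaves 1 RPS16 library against controls 21, LSS was at -0.82 (adjusted p = 0.026) and -0.58 (adjusted p = 0.0056). SC5D in RPS15 knockdown was at 4.76 and 6.86 CPM in RNA-seq, with -1.40 (adjusted p = 0.027), and had -0.64 (adjusted p = 0.097) in Ribo-seq. Both RNA-seq libraries lay above control 20_2 at 3.09 CPM and below the other controls at 9.20 to 28.97, and with a term for the run the call was lost (-0.70, adjusted p = 0.15).

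In translation efficiency 8 of the 480 pairs were lower, against 0.997% of all pairs, and 0 higher, against 1.04% (edgeR, with 13 higher and 42 lower at an unadjusted p below 0.05, and 2 and 12 called by DESeq2, against 1.73% and 1.52%). FADS1 accounted for 3 (among them RPL15 at -0.49 and RPS12 at -0.54), SQLE for 2 (among them RPS12 at -0.48), INSIG1 for 2 (RPS12 at -0.47 and RPS9 at -0.61) and ACACA for 1. The ACACA pair was RPS12, in which its RNA-seq rose by 0.49 (adjusted p = 6.2e-05) and its Ribo-seq had 0.10 (adjusted p = 0.45).

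These tests rest on 2 libraries a target. With replicate 1 or replicate 2 of every group left out, the RNA-seq calls went from 125 lower and 21 higher to 0 and 0 in both cases (over all genes 0.0181% and 0.0266% lower, 0.0455% and 0.0547% higher). The Ribo-seq calls went from 195 lower to 11 (1.17% of all pairs) and 16 (1.58%). With a term for the column run, added after the values were seen, there were 196 lower (18% of all pairs) and 18 higher (15.6%) in RNA-seq, 255 lower (20.9%) and 27 higher (19.9%) in Ribo-seq, and 13 lower (2.96%) and 9 higher (3.08%) in translation efficiency. Without control 20_2, the RNA-seq calls were 161 lower (18.3% of all pairs) and 57 higher (17%), of which RPS15 had 9 and 15.

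Across all 75 targets the genes can be described, though 59 targets have 1 library and no test. The ratio of a target is the log2 of its CPM plus 0.5 over the mean control CPM of its title set plus 0.5. The median ratio of the 30 genes was below 0 in 70 targets in RNA-seq, 44 of 44 large-subunit and 26 of 31 small-subunit, and in 73 in Ribo-seq, 44 and 29. Among the lowest in RNA-seq were RPL3 (-0.73), RPL24 (-0.71), RPS26 (-0.53) and RPLP1 (-0.52). RPL3 stands in the third column run and the controls of its title set in the second. The 5 highest were RPS15 (0.16), RPS18 (0.09), RPS15A (0.07), RPS14 (0.07) and RPS27 (0.02), all of the small subunit. With all 11 controls as the base, RPS14 was at -0.008.

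Genes differed in how widely their change was spread over targets. SQLE was below control in 75 of 75 targets in RNA-seq and CYP51A1 in 75 of 75 in Ribo-seq, and ELOVL6 in 74 in each assay. EBP and DHCR7 were below in 72 each in RNA-seq. PMVK was above control in 71 targets in RNA-seq and 70 in Ribo-seq. SCAP and ACACA were split, with 36 and 39 below in RNA-seq. TM7SF2 was the most variable over targets (SD 0.62 in RNA-seq and 0.79 in Ribo-seq), above control in 62 and by more than 1 on the log2 scale in 18 in RNA-seq. In RPS18 knockdown TM7SF2 was at 24.0 CPM in RNA-seq and 19.5 in Ribo-seq, against at most 6.68 and 6.04 in the unnumbered controls.

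**Figure D5:**
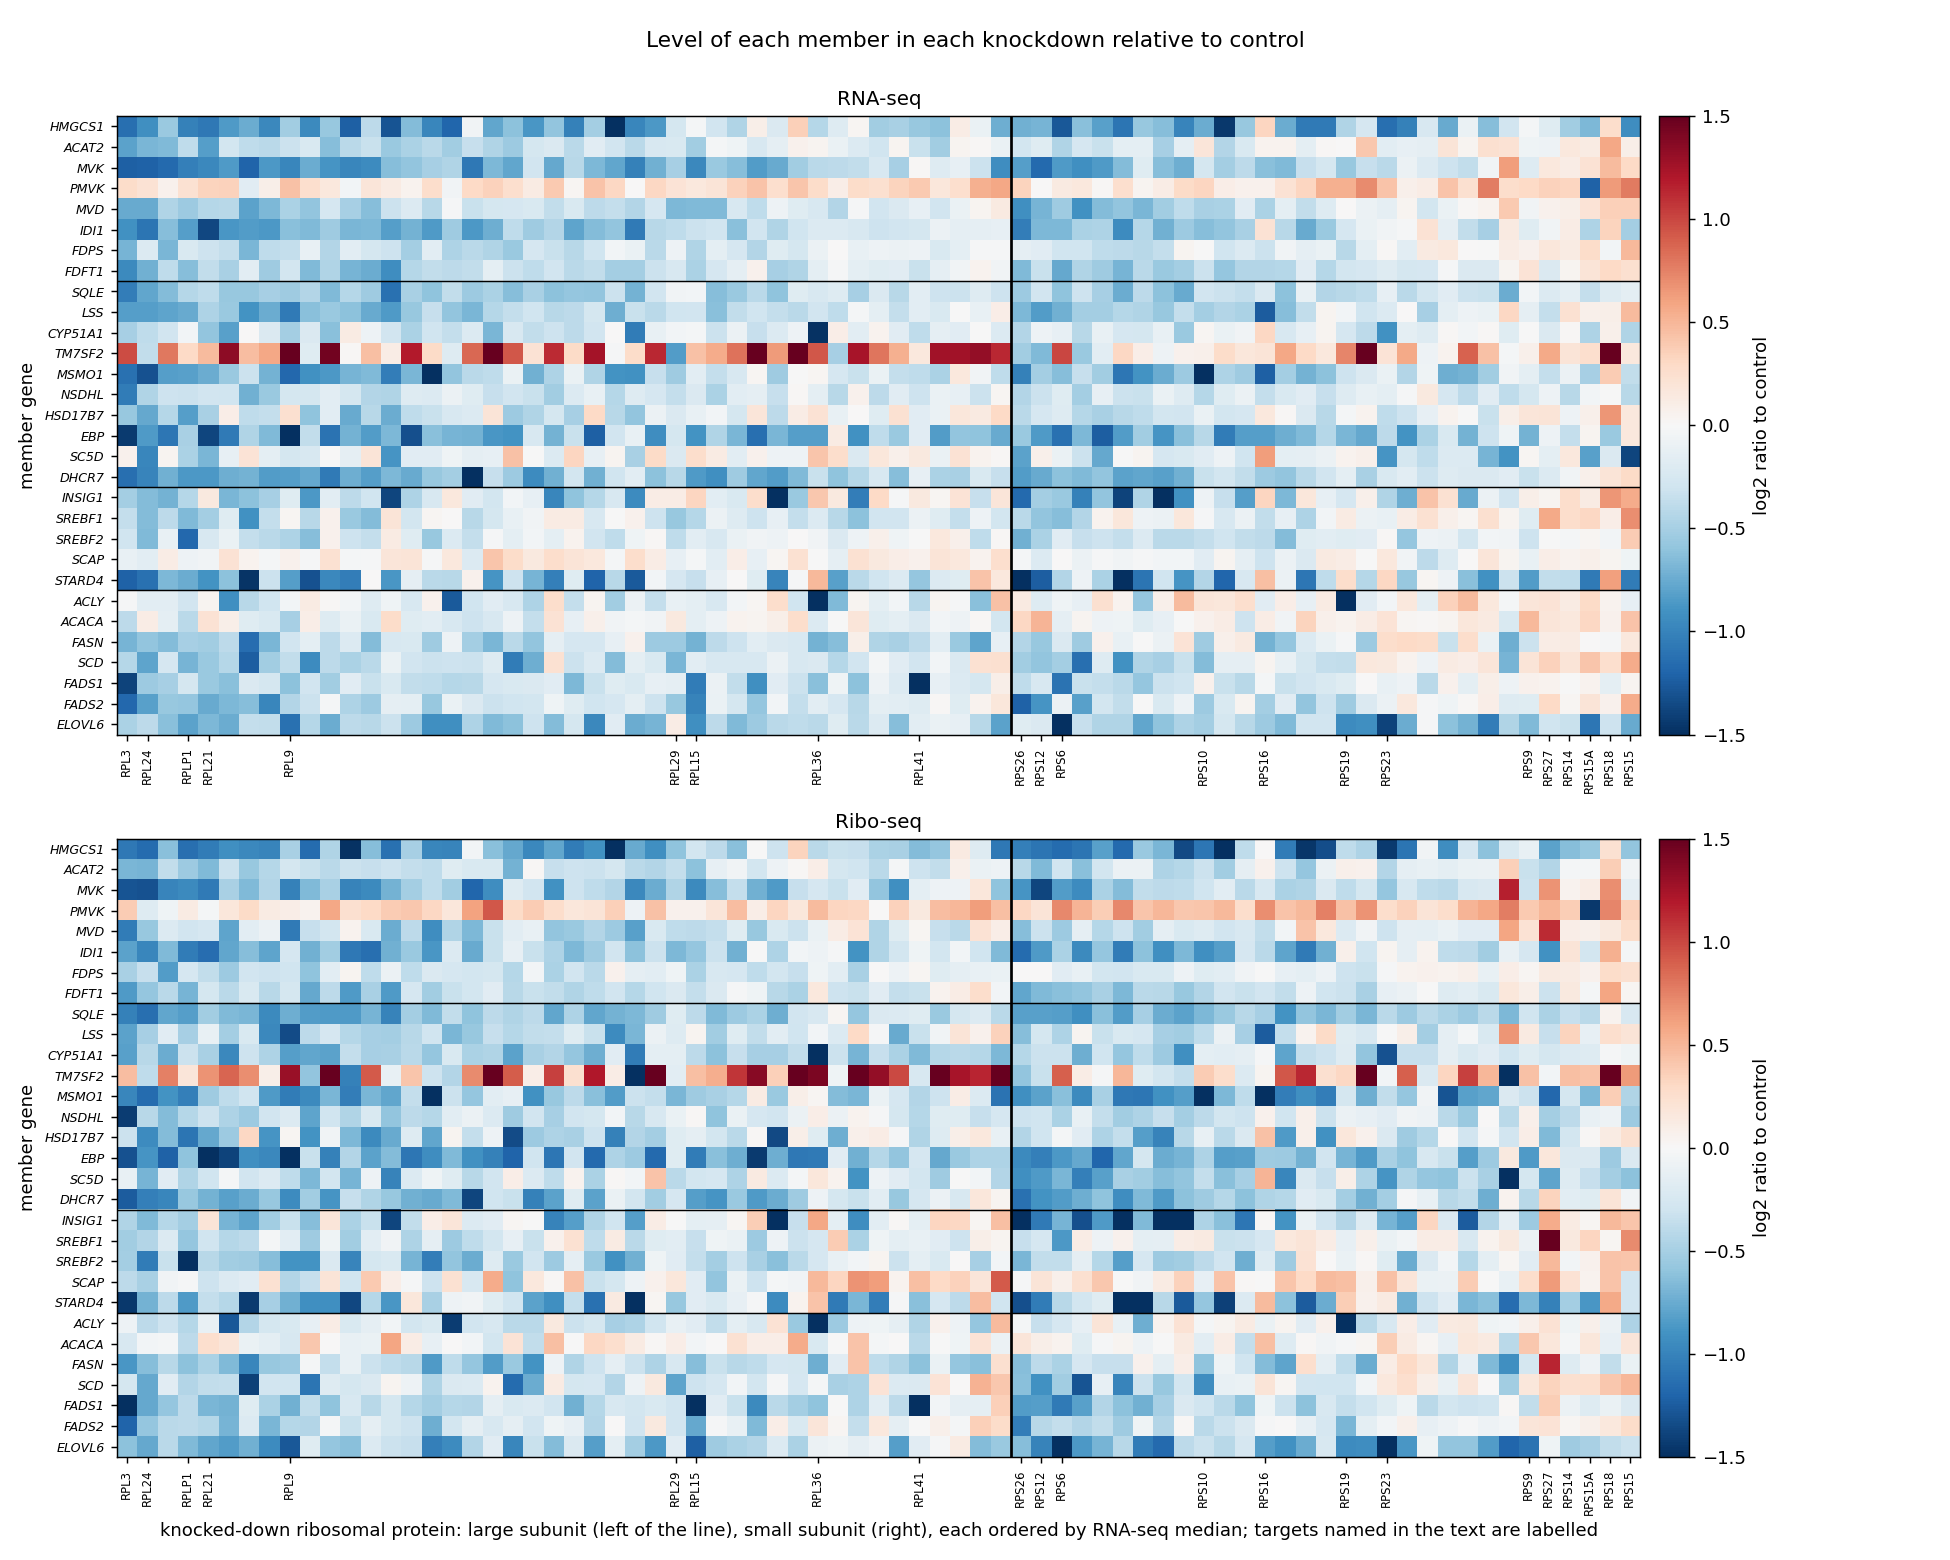
Log2 ratio to control of the 30 genes (rows, by role) in the 75 targets (columns, by subunit) in RNA-seq and Ribo-seq, on a colour scale from -1.5 to 1.5 beyond which the colour no longer changes; columns are labelled for targets named in the text. SQLE is below 0 in 75 of 75 targets in RNA-seq, PMVK is above 0 in 71, and ELOVL6 in RPS6 reaches -2.58.

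Some single libraries held 1 gene far below its level in other targets, and these were also chosen after the values were seen. ELOVL6 in RPS6 knockdown was at 10.7 CPM in RNA-seq and 7.85 in Ribo-seq, against 53.3 to 77.1 and 36.7 to 48.5 in the unnumbered controls. In controls 21, which share the third column run with RPS6, ELOVL6 was at 74.4 and 70.5 CPM in RNA-seq and 43.2 and 42.3 in Ribo-seq. The ratio of -2.58 in RPS6 was followed by RPS23 at -1.39. ACLY was at 258 CPM in RPL36 and 355 in RPS19 knockdown in RNA-seq, against 837 to 1257 in controls, with Ribo-seq at 393 and 453 against 1605 to 2364. Its median over targets was -0.05.

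RPL36 knockdown also gave the lowest CYP51A1, at 58.4 CPM in RNA-seq against 106 to 187 in controls and 40.4 in Ribo-seq against 126 to 191. EBP in RPL9 knockdown was at 24.0 and 29.8 CPM in the respective assays, against 74.6 to 96.2 and 150 to 171. FADS1 in RPL41 knockdown was at 193 and 123 CPM, against 560 to 595 and 383 to 430. SREBF2 in RPLP1 knockdown was at 54.8 and 25.96 CPM, against 118 to 141 and 66.6 to 92.9. Both assays of each lysate were low in these cases, and each target has 1 library, so there is no replicate check.

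The ratios of different members varied together over the 75 targets. As a description, since the points share controls and libraries, the median Pearson r over 435 pairs of members was 0.24 in RNA-seq and 0.22 in Ribo-seq, beside -0.0007 and 0.001 over all pairs of genes. Among the 8 genes to squalene the median was 0.52 and 0.40. The closest pairs in RNA-seq were MVD with LSS (0.74) and MVK with DHCR7 (0.74), and the most opposed was TM7SF2 with EBP (-0.45, and -0.40 in Ribo-seq). Against the mean of the rest of their role, ACAT2 (0.77), IDI1 (0.75), FDFT1 (0.74) and MVK (0.72) were closest, and CYP51A1 (0.06), SCAP (0.06) and EBP (0.08) were near 0. ELOVL6 was at -0.07, with -0.52 over the 16 numbered and 0.06 over the 59 unnumbered targets. INSIG1 was most alike to SQLE (0.62) and FDFT1 (0.60). FASN had r = 0.47 and SREBF1 r = 0.58 with the mean of the fatty acid genes, FASN itself left out for FASN. With INSIG1 the title sets differed, at 0.29 over numbered and -0.16 over unnumbered targets for FASN, and at 0.45 and 0.01 for SREBF1.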

How the data were processed

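The authors deposited whole-number read counts for each Ensembl gene, neither normalized nor pooled; per the file headers, Ribo-seq reads were counted in coding sequences and RNA-seq reads in exons. The submitters' processing notes list STAR 2.6.1, cutadapt 1.8.1, bcl2fastq 2.20.0.422 and GRCh38. Which program counted, its strand setting and its handling of shared reads: not given in the sources used here. Columns were matched to samples by name; those of controls 21_1 and 21_2 match a group but no single sample, so these 2 carry the column's name. The RPS15 RNA-seq columns, numbered 18 where the sample titles have 8, were matched by target and replicate.

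From these counts, genes that reached 1 CPM in 11 or more libraries were tested with edgeR 4.0.16 (TMM scaling, quasi-likelihood test, R 4.3.3) with the title set as covariate, and p-values were adjusted over all genes (Benjamini-Hochberg). Translation efficiency was the interaction of assay and group. The 16 targets with 2 libraries were fitted with the 6 numbered controls. In simulated counts, log2 changes of 1 or 2 planted in large-subunit libraries were recovered by the subunit and RPL24 fits. The simulation held no differences between title sets or among controls. It tried neither smaller changes nor the fit of all knockdowns against control. Alternatives used DESeq2 1.42.0, RLE scaling, no filter, other terms for the title set, libraries left out or summed, and limma 3.58.1 on the log2 ratio of each lysate (prior count 2). Intervals are 95% and assume a normal error.

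The members and lists were chosen with earlier results of these data known. Full values are given for up to 4 members with the largest rise and 4 with the largest fall in a comparison, for INSIG1, SREBF1, SREBF2, SQLE, FASN and SCD, and for the 4 members and 4 targets called most often among the 16. Promoters were those of up to 3 members called most often. Other members are given by estimates alone.

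The labels tie the RNA-seq and Ribo-seq library of one name to one divided lysate. Deviations from the group mean were compared in 27 such pairs, the first lysate of each target with 2 libraries and all controls of both title sets. They correlated with a median r of 0.15, above 0.1 in 16. Replicate numbers did not pair libraries across targets, with a median r of -0.04 in RNA-seq and 0.05 in Ribo-seq. Single comparisons varied, with r over 0.1 in 40 of 120 in RNA-seq and 30 of 120 in Ribo-seq. No 2 libraries of a group were alike within sampling noise (chi-square per degree of freedom at least 3.65 over 41 pairs in RNA-seq and 3.68 in Ribo-seq). A count of 3 equals 0.160 CPM in the shallowest RNA-seq and 0.386 CPM in the shallowest Ribo-seq library, and the lowest member level was above both. RPS4Y was left out of the check of targeted mRNA, which covers 74 targets. Promoter sequences come from RefSeq. Some targets are counted in the totals and not reported by name here.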

Additional observations from a re-analysis of the deposited data

Results flagged for a closer look

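Of 120 groups of 5 or 6 control libraries tested for a library far from the others, 7 had one, where chance gives about 1 in 20. HMGCS1 in RNA-seq control 20_2 was at 77.7 CPM with the next at 148. In RNA-seq control 3, EBP was at 96.2 CPM (next 78.5), SREBF1 at 143 (next 116) and SREBF2 at 141 (next 123), each the highest of the unnumbered controls. In Ribo-seq control 9, FDFT1 was at 423 CPM (next 334) and INSIG1 at 104 (next 75.3). NSDHL in Ribo-seq control 11_1 was at 100.1 CPM (next 92.7).

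The response to knockdown differed between large- and small-subunit targets, by the test of the difference itself, for 14 genes in RNA-seq. These were MVK (-0.45), FASN (-0.34), ACAT2 (-0.33), SREBF1 (-0.32), DHCR7 (-0.31), FADS2 (-0.28), IDI1 (-0.27), SCD (-0.24), MVD (-0.22), ACLY (-0.21), FADS1 (-0.20), LSS (-0.19), FDPS (-0.19) and ACACA (-0.12), as large minus small on the log2 scale. In Ribo-seq they were MVK (-0.46), SREBF1 (-0.33), MVD (-0.31), SREBF2 (-0.26), EBP (-0.26), FASN (-0.25), PMVK (-0.23), FDPS (-0.22), SCAP (-0.19), ACAT2 (-0.18) and SC5D (0.25), and in translation efficiency SCAP (-0.27).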

How the results depend on the processing

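Among the estimates checked, none changed sign past a threshold in an alternative. These were the members in the comparisons over all libraries and some RNA-seq and Ribo-seq pairs of the 16 targets. The pairs were HMGCS1, EBP, MSMO1 and SQLE in RPL24, PMVK in RPS15A, SC5D in RPS15, MSMO1 in RPS10 and LSS in RPS16. Other pairs were not checked for this. For these estimates and the lowest and highest target medians, 1665 values kept their side of the threshold or moved by less than the spread between libraries. Of the others, 132 lost their call and 41 gained one, 15 of them without a title set term. The counts below moved by over 1.5 times. For all knockdowns in RNA-seq, higher members (1) were 2 with DESeq2, 0 without a title set term, 0 in numbered titles and 2 without control 20_2, and lower members (17) were 5 in numbered and 9 in unnumbered titles. In Ribo-seq, higher members (2) were 1 with no filter, 1 without the term, 0 in numbered and 1 in unnumbered titles, 1 without control 20_2 and 1 with libraries summed, and lower members (16) were 4 in unnumbered titles. For large against small subunit in RNA-seq, higher members (0) were 2 without the term and 2 in unnumbered titles, and lower members (14) were 5 in numbered titles, 9 in unnumbered titles and 9 with libraries summed. In Ribo-seq, higher members (1) were 3 without the term and 0 in numbered titles, and lower members (10) were 6 in unnumbered titles. In translation efficiency, higher members (0) were 3 without the term, and lower members (1) were 0 without the term, 0 in either title set and 0 with libraries summed. For the 16 targets, RNA-seq calls without control 20_2 were 57 higher. With a term for the column run, chosen after seeing the data, RNA-seq calls were 196 lower (125) and translation efficiency calls 9 higher (0) and 13 lower (8). Leaving out replicate 1 or 2 of every knockdown left 1 library a target, which was assumed to vary as the numbered controls do. Nearly all calls among the 16 targets were then lost. Translation efficiency calls among them were 2 higher with DESeq2, 2 higher and 18 lower without control 20_2, and 5 lower with no filter. The cause of these moves was not tested, other than fewer samples.

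Pairing RNA-seq and Ribo-seq by lysate as a replicate block changed translation efficiency calls to 2 lower for all knockdowns, and to 5 higher and 3 lower for large against small subunit. Replicate numbers do not pair the 16 targets, and as a block they changed no RNA-seq or Ribo-seq count there by over 1.5 times. For translation efficiency of the 16 targets the block was the lysate, as above, and 6 pairs were higher and 12 lower. With all 11 controls as the base, target medians moved by over the spread between libraries for, among others, RPL3 (-0.79), RPL24 (-0.65), RPLP1 (-0.58), RPS14 (-0.008), RPS15A (0.18) and RPS15 (0.30) in RNA-seq, and for RPL24 (-0.75), RPS26 (-0.72) and RPL3 (-0.68) in Ribo-seq.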
